A study of Mus musculus with 9 samples.

Results

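Phase II conjugation enzymes are the transferases that attach a polar group to drugs, hormones, bile pigments and bile acids so that these can leave the body in bile or urine. UDP-glucuronosyltransferases (Ugt genes) transfer glucuronic acid from UDP-glucuronic acid inside the endoplasmic reticulum, glutathione transferases (Gst and Mgst genes) join the tripeptide glutathione to reactive compounds, and cytosolic sulfotransferases (Sult genes) transfer sulfate from the donor PAPS. The liver is the main organ in which these reactions run, and hepatocytes are the cells that carry most of them. The set was taken by gene symbol as the families Ugt1a, Ugt2a, Ugt2b, Ugt3a and Ugt8a, the glutathione transferase classes alpha, kappa, mu, omega, pi, theta and zeta with the microsomal Mgst genes, and the Sult families. It held 52 of the 17442 genes in the table, 18 glucuronosyltransferases, 25 glutathione transferases and 9 sulfotransferases, and 45 of the 52 had enough reads to be tested.

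Liver RNA was sequenced from 9 male C57BL/6 mice, each giving 1 library. Of these, 5 had the genotype label Msr1-/- and 4, called wild type, the label Msr1+/+, and all 9 had eaten a high fat-cholesterol diet for 16 weeks and carried the disease label NAFLD (non-alcoholic fatty liver disease). Msr1 encodes macrophage scavenger receptor 1, a macrophage surface protein that binds modified lipoproteins for uptake. The comparison addressed what the loss of this receptor does to the liver on this diet, and here it was made for the conjugation enzymes. Values are read counts per gene divided by the size factor of the library, called normalised counts below, and each liver keeps the animal number of its label. Fold changes were taken after adding 1 to each value, so that changes of low genes come out too small, and p-values are adjusted over all genes tested.

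The libraries held between 15006773 and 18238932 reads in genes. Msr1 itself averaged 175.4 ± 23.0 normalised counts in the Msr1-/- livers and 278.0 ± 124.7 in the wild-type livers (SD, n = 5 and n = 4), a log2 difference of -0.58 (two-sided exact permutation test, p = 0.0476, the smallest possible being 0.0159). That difference was -0.31 without wild type 3 (exact permutation test, p = 0.107), so Msr1 does not check the genotype labels clearly and every direction below rests on the labels. Wild type 3 lay apart from the other 8 livers, at -88.7 on a first principal component that held 41% of the variance, against -8.30 to 27.6 for the rest. Its summed level of 6 macrophage genes was 7014 normalised counts and that of 6 cholangiocyte genes 1684, against 1398 to 1988 and 619 to 702 in the other wild-type livers. The same sums were 829 to 1237.8 and 251 to 548 in the Msr1-/- livers, and the sums of 6 Kupffer cell genes were 2771 to 3878 in Msr1-/- livers and 4799 to 10575 in wild-type livers. Of each list all 6 genes were in the table, and 6 of 6 had reads in every liver except for cholangiocytes, with 4 of 6. The sums of 6 stellate cell genes were 827 to 1047 in Msr1-/- livers and 1052 to 2140.1 in wild-type livers, where wild type 3 was the highest, and those of 6 sinusoidal endothelial genes were 2808 to 3429 in Msr1-/- livers and 2916 to 3513 in wild-type livers. The hepatocyte genes had summed levels of 1601166 to 2326744 in Msr1-/- livers and 1291005 to 1926403 in wild-type livers. In bulk tissue, fewer cells of a type and less RNA per cell cannot be told apart, and the part that these marker levels have in the results below was not tested. Results that rest on wild type 3 are given with and without it. The p-values measure the spread between animals, and whether animals shared a litter or a cage was not given in the sources used here.

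Most conjugation enzymes had a higher mean log2 value in the Msr1-/- livers. Of the 45 tested members, 37 had a positive log2 fold change (82.2%, against 52.7% of the 12937 genes tested). So did 5 of 6 hepatocyte genes (83.3%, median 0.23) and 14 of 17 enzymes of other conjugation reactions (82.4%). In the Kupffer cell and macrophage lists 0 of 6 genes each were positive. Without wild type 3 the positive shares were 80% of members, 66.7% of hepatocyte genes and 64.7% of other conjugation enzymes. The part of cell type differences was not tested. The median log2 fold change was 0.41 over the members and 0.02 over all genes. At an adjusted p under 0.05 in limma, 2 members were higher, the sulfotransferase gene Sult1c2 and the bilirubin-conjugating gene Ugt1a1, which is 4.44% of the members beside 0.665% of all genes tested. limma called 0 members lower, beside 0.703% of all genes. On reads, edgeR called the same 2 higher (0.572% of all genes) and 0 lower (0.858%), and DESeq2 called 8 higher (2.37%) and 0 lower (3.6%), adding Gsta3, Gsto1, Gstt3, Sult1b1, Ugt1a6b and Ugt2b36. At an unadjusted p under 0.05, 14 members were higher (31.1%, against 7.3% of all genes) and 1 was lower, Ugt2b38 (8% of all genes). Every Msr1-/- liver exceeded every wild-type liver in 5 members, Sult1c2, Ugt1a1, Sult1b1, Gsta3 and Gsto1 (11.1%, against 3.3% of all genes), and in no member did every Msr1-/- liver lie below every wild-type liver (3.99% of all genes).

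The median log2 fold change was positive in each of the 3 families, at 0.47 over 15 glucuronosyltransferases, of which 13 were positive, 0.30 over 23 glutathione transferases, of which 18 were positive, and 0.56 over 7 sulfotransferases, of which 6 were positive. Without wild type 3 the medians were 0.34, 0.32 and 0.27, and 13 of 15, 19 of 23 and 4 of 7 members were positive (57.1% of the sulfotransferases, against 50.5% of all genes). In that fit limma called 9 members higher (20%, against 2.59% of all genes) and 0 lower (2.32% of all genes). Those 9 were Gsta1, Gsta2, Gsta3, Gsta4, Gstm1, Gstm4, Sult1c2, Ugt1a1 and Ugt1a6b. Without that liver, edgeR called 6 members higher (2.37% of all genes) and 0 lower (2.75%), and DESeq2 14 higher (4.2%) and 0 lower (4.06%). Of the alpha-class glutathione transferases, edgeR and DESeq2 then called Gsta2, Gsta3 and Gsta4 and not Gsta1, where limma called all 4. Every Msr1-/- liver then exceeded every wild-type liver in 10 members (22.2%, against 7.42% of all genes), and the reverse held in 0 (6.7% of all genes). Wild type 3 was the highest of the 9 livers in 7 members (15.6%, against 26.5% of all genes) and the lowest in 15 (33.3%, against 25.5% of all genes).

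**Figure D1:**
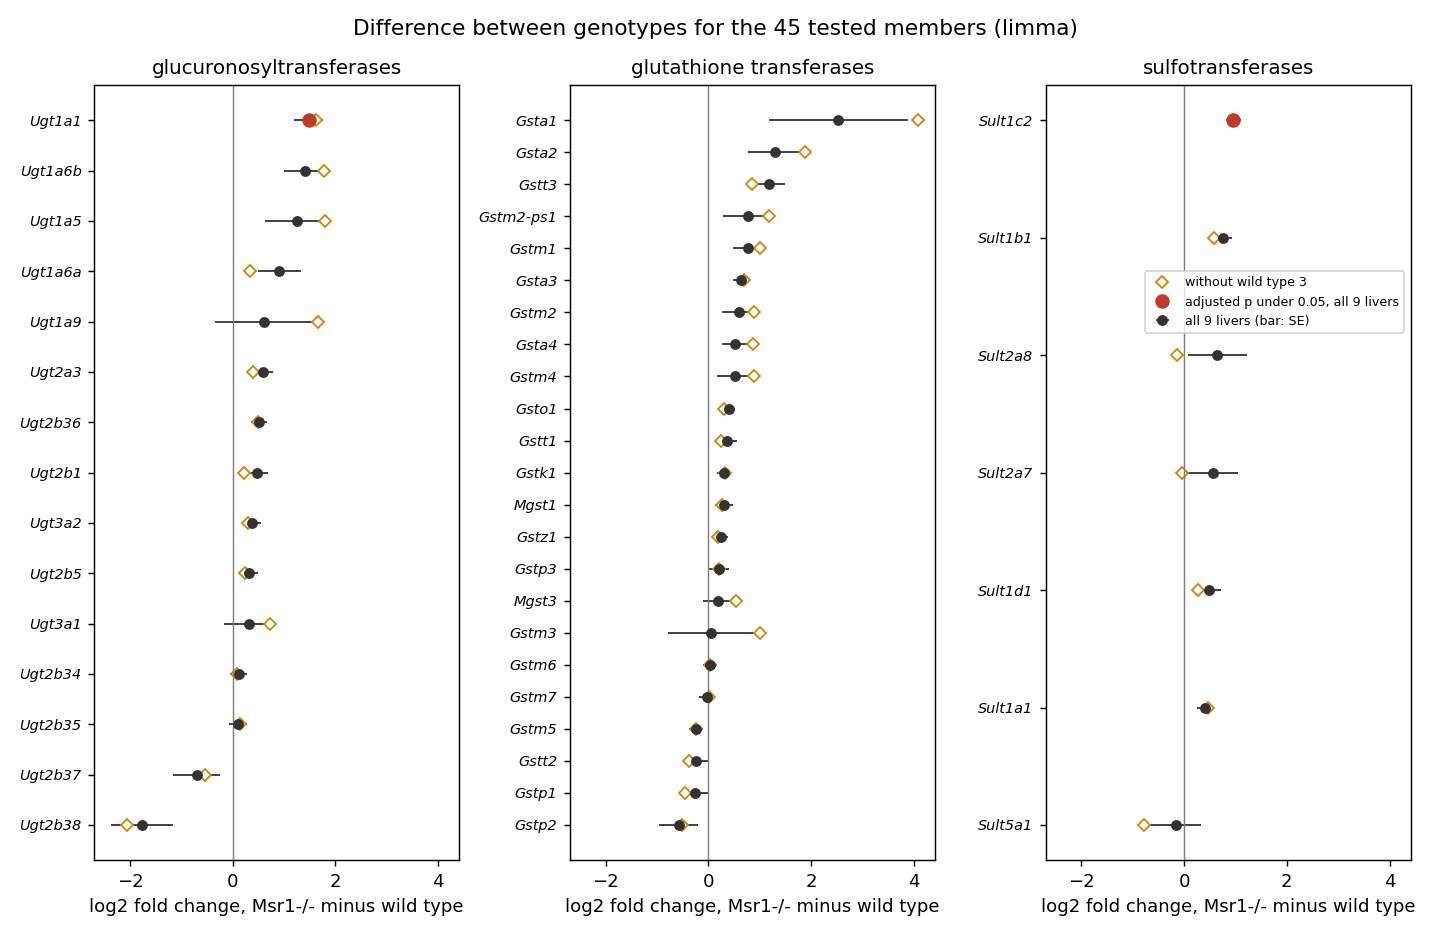
Log2 fold change (Msr1-/- minus wild type, x axis) of the 45 tested conjugation enzymes from limma, with bars for the standard error over all 9 livers and open diamonds for the fit without wild type 3. Red marks the 2 members called at an adjusted p under 0.05, Ugt1a1 at 1.48 and Sult1c2 at 0.96. The diamonds of Gsta1, Gstm3 and Ugt1a9 lie far to the right of their points, and those of Sult2a7 and Sult2a8 cross to the left of zero.

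Among the glucuronosyltransferases, the Ugt1a genes had the highest median log2 fold change of the 3 tested subfamilies, 1.25 over 5 genes and 1.66 without wild type 3. They form a locus on chromosome 1 in which each gene has its own first exon and all share the remaining exons, and 50.3% to 82.7% of the exon bases of the 7 Ugt1a members lie in other genes too (GENCODE M21, GRCm38). How the counting treated reads in shared exons was not given in the sources used here, so the split of reads among these genes is uncertain. Ugt1a1 (chromosome 1, 88211959 to 88218997, plus strand), which makes the enzyme that conjugates bilirubin, had 1030.1, 721, 668, 428 and 846 normalised counts in Msr1-/- livers 1 to 5, against 354, 167, 348 and 202 in wild type 1 to 4. The lowest Msr1-/- liver, number 4, lay above the highest wild-type liver. Ugt1a1 rose 2.79-fold (log2 fold change 1.48, SE 0.28, limma adjusted p = 0.0347). Without wild type 3 the log2 fold change was 1.63 at a limma adjusted p of 0.00967. The call was kept when Msr1-/- 4, wild type 1 or wild type 3 was left out and lost when any of the other 6 livers was, at a limma adjusted p of up to 0.0899.

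Ugt1a6b, whose enzyme conjugates phenols, had 582, 342, 262, 207 and 295 normalised counts in Msr1-/- livers, against 167, 59.1, 255 and 76.8 in wild-type livers. Only wild type 3 reached the range of the Msr1-/- livers, and the log2 fold change of 1.42 had a limma adjusted p of 0.126, which was 0.0166 without wild type 3. Ugt1a6a, of the same locus, had 271, 217, 333, 334 and 331 in Msr1-/- livers, against 253, 209.9, 47.1 and 232 in wild-type livers. Here wild type 3 was the lowest of all livers, where for Ugt1a6b it was the highest of its group. The log2 fold change of Ugt1a6a was 0.91 with wild type 3 and 0.34 without it. Ugt1a9 had 23.0 to 139 normalised counts in Msr1-/- livers, against 292 in wild type 3 and 5.28 to 40.8 in the other wild-type livers. Ugt1a5 had 21.05 to 73.1 in Msr1-/- livers and 3.17 to 47.9 in wild-type livers. Ugt1a10 and Ugt1a7c had too few reads to be tested.

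The promoters of the 2 called members are shown as the 250 bases before their RefSeq start sites in GRCm38.p6, followed by 59-base stretches of the 4 members whose promoters hold the core of the antioxidant response element. Capitals mark matches, on either strand, to that core, TGACNNNGC, through which the stress sensor Nrf2 acts on many glutathione transferase genes. All sequences are written 5′ to 3′ on the strand of the gene, at chr17:53845959-53846208 (minus), chr1:88211709-88211958 (plus), chr1:21240439-21240497 (plus), chr3:107895787-107895845 (plus), chr3:107931710-107931768 (minus) and chr6:138140446-138140504 (plus).
Sult1c2: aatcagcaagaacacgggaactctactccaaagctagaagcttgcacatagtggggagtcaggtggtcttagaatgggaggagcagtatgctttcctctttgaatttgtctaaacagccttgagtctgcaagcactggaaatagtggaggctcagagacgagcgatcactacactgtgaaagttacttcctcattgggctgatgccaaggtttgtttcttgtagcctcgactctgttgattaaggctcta
Ugt1a1: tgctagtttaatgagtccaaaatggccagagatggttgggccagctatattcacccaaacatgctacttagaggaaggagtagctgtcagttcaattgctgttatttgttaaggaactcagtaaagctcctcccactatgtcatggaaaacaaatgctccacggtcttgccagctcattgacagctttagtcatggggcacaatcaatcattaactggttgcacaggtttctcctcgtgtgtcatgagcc
Gsta3: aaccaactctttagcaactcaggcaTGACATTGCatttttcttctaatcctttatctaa
Gstm5: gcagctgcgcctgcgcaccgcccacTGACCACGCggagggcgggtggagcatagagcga
Gstm7: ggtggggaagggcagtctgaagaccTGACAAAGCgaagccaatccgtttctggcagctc
Mgst1: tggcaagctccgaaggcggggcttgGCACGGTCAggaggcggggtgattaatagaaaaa

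The windows of Sult1c2 and Ugt1a1 held no match. The Sult1c2 window lies inside the span that GENCODE gives this gene, which begins at 53846339 on the minus strand. The bases before that GENCODE start were not searched. Windows were listed for 46 of the 52 members, some with several start sites, and 4 of their 57 windows matched (7.02%), against 10.2% of all 32851 windows. The match lay 121 to 113 bases before the RefSeq start of Gsta3, 42 to 34 before that of Gstm5, 129 to 121 before a start of Gstm7 and 56 to 48 before a start of Mgst1. Gstm7 and Mgst1 had 2 windows each, and the match was not in both. The stretches shown for them lie inside the GENCODE spans of these genes, which begin at 107931817 (minus) and 138140316 (plus). Of the 4 members with a match, Gsta3 and Mgst1 had positive log2 fold changes, 0.62 and 0.30, and Gstm5 and Gstm7 negative ones, -0.24 and -0.03. Gstm7 turned positive in some fits. The Ah receptor core GCGTG was found in 11 member windows (19.3%, against 28.2%). Repeats of the nuclear receptor site AGGTCA with 1 or 4 bases between the copies were in 0 member windows, against 0.0335% and 0.0152% of all windows.

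The Ugt2 genes, a cluster on chromosome 5 whose enzymes conjugate steroids, bile acids and many drugs, lay closer to zero. Their median log2 fold change was 0.22 over 8 genes, of which 6 were positive. Ugt2b36 had 19992, 16799.5, 14102, 15323 and 16606 normalised counts in Msr1-/- livers, against 15154, 10596, 10947 and 10051 in wild-type livers. Only Msr1-/- 3 fell below a wild-type liver, wild type 1, and the log2 fold change of 0.51 had a limma adjusted p of 0.15. Ugt2b5 had 20840.5, 18534, 14256, 15797 and 18694 in Msr1-/- livers, against 17735, 14614, 11563 and 12631 in wild-type livers, with wild type 1 and 2 inside the range of the Msr1-/- livers (log2 fold change 0.33, limma adjusted p = 0.404). Ugt2b1 had 15088, 12673, 11709, 14425 and 13796 in Msr1-/- livers, against 13545, 10164, 5835 and 11341 in wild-type livers. Wild type 3 was the lowest for Ugt2b1, and the log2 fold change was 0.47 with it and 0.22 without it.

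Ugt2b38 had a negative log2 fold change and was the only member lower at an unadjusted p under 0.05. It had 200.3, 102, 25.6, 29.2 and 80.1 normalised counts in Msr1-/- livers, against 357, 439.9, 122 and 137 in wild-type livers. Msr1-/- 1 lay above wild type 3 and 4, and the other 4 Msr1-/- livers lay below all wild-type livers. The log2 fold change was -1.76 (SE 0.61, limma adjusted p = 0.191), and -2.06 without wild type 3 (limma adjusted p = 0.0774). Of the 50-base stretches of Ugt2b38, 37.4% occur in other genes, mostly in Ugt2b5, so its reads could be split with a gene of much higher level. Ugt2b37, of the same cluster, had 21.00 to 121 in Msr1-/- livers and 42.7 to 92.6 in wild-type livers. The rest of the Ugt2 genes had log2 fold changes from 0.10 for Ugt2b35 to 0.60 for Ugt2a3. Ugt3a1 and Ugt3a2, whose human counterparts use sugars other than glucuronic acid, had log2 fold changes of 0.31 and 0.38. Ugt8a, which makes the myelin lipid galactosylceramide, had 12 reads in all 9 livers together.

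**Figure D2:**
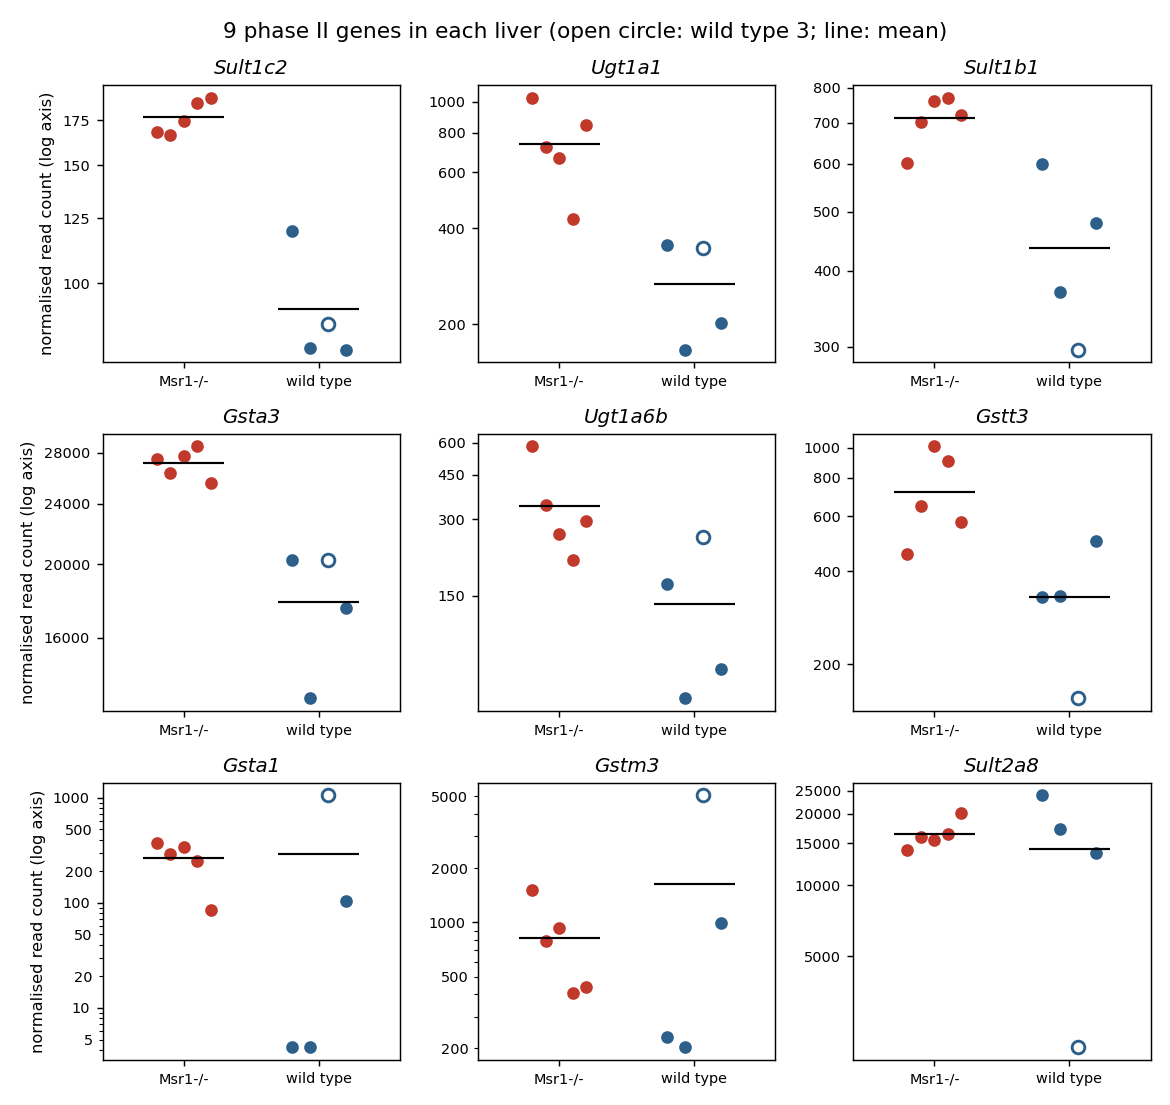
Normalised counts (log axes) of 9 conjugation enzymes in each liver, Msr1-/- left and wild type right in each panel, with a line at the mean and an open circle for wild type 3. The genotypes do not overlap for Sult1c2, Ugt1a1, Sult1b1 and Gsta3, while wild type 3 stands far above its group for Gsta1 and Gstm3 and far below it for Sult2a8.

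The alpha-class glutathione transferases, which act on lipid peroxidation products and many drugs, had the highest median log2 fold change of the glutathione transferase classes, 0.96 over 4 genes and 1.38 without wild type 3. With all 9 livers limma called 0 of the 4 (0.665% of all genes were called higher). Of the 4, 2 were higher at an unadjusted p under 0.05 (50%, against 7.3% of all genes). Without wild type 3 limma called all 4 higher (100%, against 2.59% of all genes). Gsta3 (GRCm38 chromosome 1, 21240589 to 21265661, plus strand), the highest of this class per kilobase of exon, had 27473, 26366, 27779.8, 28558 and 25524 normalised counts in Msr1-/- livers, against 20243, 13319.5, 20223 and 17513 in wild-type livers. The groups did not overlap. For Gsta3 limma gave a log2 fold change of 0.62 (SE 0.15, 1.54-fold, limma adjusted p = 0.0763), and 0.69 at a limma adjusted p of 0.0226 without wild type 3.

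Gsta4, whose enzyme clears the lipid peroxidation product 4-hydroxynonenal, had 1416, 1651, 1705, 1586 and 1717 normalised counts in Msr1-/- livers, against 847, 767, 2309.5 and 1044 in wild-type livers. Wild type 3 was the highest of all 9 livers and the other wild-type livers were the 3 lowest. For Gsta4 limma gave a log2 fold change of 0.53 with wild type 3 (adjusted p = 0.398) and 0.87 without it (limma adjusted p = 0.00393). Gsta2 had 538, 525, 822, 747 and 532 in Msr1-/- livers, against 115, 114, 882 and 356 in wild-type livers, with wild type 3 again the highest of all (log2 fold change 1.29, and 1.89 without wild type 3 at a limma adjusted p of 0.00994).

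Gsta1 spanned a wide range. It had 368, 291, 343, 253 and 86.2 normalised counts in Msr1-/- livers, against 4.28, 4.22, 1057 and 103 in wild-type livers. Wild type 1 and 2 were near zero, wild type 4 lay just above the lowest Msr1-/- liver, number 5, and wild type 3 was the highest of all. On the log2 scale limma gave a fold change of 2.53 (SE 1.35, adjusted p = 0.424), but the arithmetic means were 268 ± 111 in Msr1-/- livers and 292 ± 512 in wild-type livers (SD, n = 5 and n = 4). In edgeR the log2 fold change was -0.15, in DESeq2 it was -0.13, and 4.08 in limma without wild type 3 (adjusted p = 0.0201). In limma it was positive with each liver left out in turn, at 1.53 to 4.08. Of the 50-base stretches of Gsta1, 90.5% occur in other genes, mostly in Gm3776, and of those of Gsta2 49.8%, mostly in Gsta1, so the 2 are uncertain as separate genes.

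The mu class sits in 1 cluster on chromosome 3, and its 7 genes did not share a direction over all 9 livers, with a median log2 fold change of 0.05. Without wild type 3 the median was 0.89. Gstm1, the highest of the cytosolic members per kilobase of exon, had 39448, 39462, 43043, 26748 and 37774 normalised counts in Msr1-/- livers, against 13798, 15611, 35567 and 29114 in wild-type livers. Wild type 1 and 2 were below all Msr1-/- livers, while wild type 3 and 4 lay above Msr1-/- 4. The log2 fold change was 0.76 (limma adjusted p = 0.226), and 1.00 without wild type 3 (limma adjusted p = 0.036).

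Gstm3 had 1507, 793, 928, 407 and 439 normalised counts in Msr1-/- livers, against 232, 203, 5083 and 993 in wild-type livers, with wild type 3 far above every other liver. Its log2 fold change was 0.05 in limma, 1.00 without wild type 3, and -1.01 in edgeR. Gstm2 and Gstm4 had 658 to 1543 and 759 to 1264 in Msr1-/- livers, against 462 to 1360.3 and 319 to 1409 in wild-type livers. Their log2 fold changes were 0.59 and 0.52, and 0.89 and 0.89 without wild type 3. Gstm5, Gstm6 and Gstm7 were near zero at -0.24, 0.03 and -0.03. Gstm2-ps1 is annotated as a processed pseudogene on chromosome 5, and 46.9% of its 50-base stretches occur in other genes, mostly in Gstm1, so its 19.9 to 65.7 normalised counts in Msr1-/- livers and 7.39 to 51.0 in wild-type livers are uncertain.

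Among the other classes, Gsto1, an omega-class enzyme that reduces dehydroascorbate and methylated arsenic, had 1441, 1536, 1488, 1534 and 1600.0 normalised counts in Msr1-/- livers, against 1225, 1209, 923 and 1259.8 in wild-type livers. The groups did not overlap and wild type 3 was the lowest. Its log2 fold change was 0.41 (SE 0.11, limma adjusted p = 0.102), and 0.30 without wild type 3. Gstt3, of the theta class, had 455, 649.8, 1009, 903 and 574 in Msr1-/- livers, against 330.4, 332, 155 and 501 in wild-type livers. Wild type 4 lay inside the range of the Msr1-/- livers, and the log2 fold change of 1.18 had a limma adjusted p of 0.101. Its class mates Gstt1 and Gstt2 had log2 fold changes of 0.36 and -0.24.

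Mgst1, the microsomal enzyme in the membranes of the endoplasmic reticulum and mitochondria, had 106894, 110014, 110759, 121392 and 97075 normalised counts in Msr1-/- livers, against 99568, 90175, 80805 and 84494 in wild-type livers. Wild type 1 alone lay inside the range of the Msr1-/- livers (log2 fold change 0.30, limma adjusted p = 0.492). Gstz1, which isomerises maleylacetoacetate in the breakdown of tyrosine, and Gstk1, the kappa-class enzyme of mitochondria and peroxisomes, had log2 fold changes of 0.25 and 0.30. Mgst3, another microsomal member, had 318 to 543 normalised counts in Msr1-/- livers, against 723 in wild type 3 and 221 to 341 in the other wild-type livers. The pi class had no common direction, with Gstp1 at -0.26, Gstp2 at -0.58 and Gstp3 at 0.20. Gstp1 had 4418 to 11041 normalised counts in Msr1-/- livers and 5156 to 9635 in wild-type livers, and 33.7% of its 50-base stretches are shared with Gstp2.

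Among the sulfotransferases, Sult1c2 (GRCm38 chromosome 17, 53829637 to 53846339, minus strand), of the phenol sulfotransferase family SULT1, had the smallest p of the set. It had 169, 166, 174, 186 and 189 normalised counts in Msr1-/- livers, against 119.8, 80.2, 87.1 and 79.7 in wild-type livers. The groups did not overlap, the Msr1-/- livers lay within a narrow band, and wild type 1 was the highest of its group. Sult1c2 rose 1.94-fold (log2 fold change 0.96, SE 0.15, limma adjusted p = 0.0155), and the log2 fold change without wild type 3 was 0.94 (limma adjusted p = 0.00867). Leaving out Msr1-/- 2 or Msr1-/- 4 took the limma adjusted p to up to 0.0522. Of its 50-base stretches, 0.723% occur in another gene.

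Sult1b1, which sulfates thyroid hormones, had 602, 704, 762, 771 and 721 normalised counts in Msr1-/- livers, against 599.9, 368, 297 and 479 in wild-type livers. The groups met almost at Msr1-/- 1 and wild type 1 without overlapping. The log2 fold change was 0.75 (SE 0.19, limma adjusted p = 0.0763), and 0.58 without wild type 3 (limma adjusted p = 0.052). Sult1a1, the main phenol sulfotransferase, had 4084, 4579.8, 6061, 6059.6 and 4684 in Msr1-/- livers, against 3924, 3273, 4399 and 3770.1 in wild-type livers, with wild type 3 above Msr1-/- 1 as the sole overlap (log2 fold change 0.40, limma adjusted p = 0.228). Sult1d1, an enzyme that sulfates catecholamines in mice, had 2695, 2694, 2382, 3585 and 2636 in Msr1-/- livers, against 2463, 2875, 1256 and 1704 in wild-type livers. Wild type 2 exceeded 4 of the 5 Msr1-/- livers, and the log2 fold change was 0.49 with wild type 3 and 0.27 without it.

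Sult2a8, a bile acid sulfotransferase of mouse liver, had 14139.5, 15927, 15454, 16446 and 20086 normalised counts in Msr1-/- livers, against 23996, 17348, 2062 and 13676 in wild-type livers. Wild type 3 had far less than any other liver and wild type 1 the most. Its log2 fold change was 0.65 (limma adjusted p = 0.673) and turned to -0.13 without wild type 3. Sult2a7 followed the same course, at 0.56 with that liver and -0.04 without it. Sult5a1 had 144 to 450.2 in Msr1-/- livers, against 74.5 in wild type 3 and 383 to 441 in the other wild-type livers. Sult1e1, the estrogen sulfotransferase, had 65 reads in all 9 livers together and was not tested.

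Per kilobase of exon, Mgst1 had the highest level of the set, at 54261 per kb in Msr1-/- livers and 44094 per kb in wild-type livers. Gstm1 came next, at 25319 per kb in Msr1-/- livers and 15969 per kb in wild-type livers. Ugt2b5 and Ugt2b36 were the highest glucuronosyltransferases, Ugt2b5 at 9485 per kb in Msr1-/- livers and 7608 per kb in wild-type livers and Ugt2b36 at 8045 per kb in Msr1-/- livers and 5676 per kb in wild-type livers. Sult2a8 was the highest sulfotransferase, at 4997 per kb in Msr1-/- livers and 4345 per kb in wild-type livers. The 2 called members were far lower, Ugt1a1 at 332 per kb in Msr1-/- livers and 120.4 per kb in wild-type livers and Sult1c2 at 95.8 per kb in Msr1-/- livers and 49.7 per kb in wild-type livers, though exons shared within the Ugt1a locus make the length of Ugt1a1 uncertain. The 7 untested members, Gsto2, Mgst2, Sult1e1, Sult6b1, Ugt1a10, Ugt1a7c and Ugt8a, had means of 1.05 to 7.498 normalised counts over the 9 livers.

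**Figure D3:**
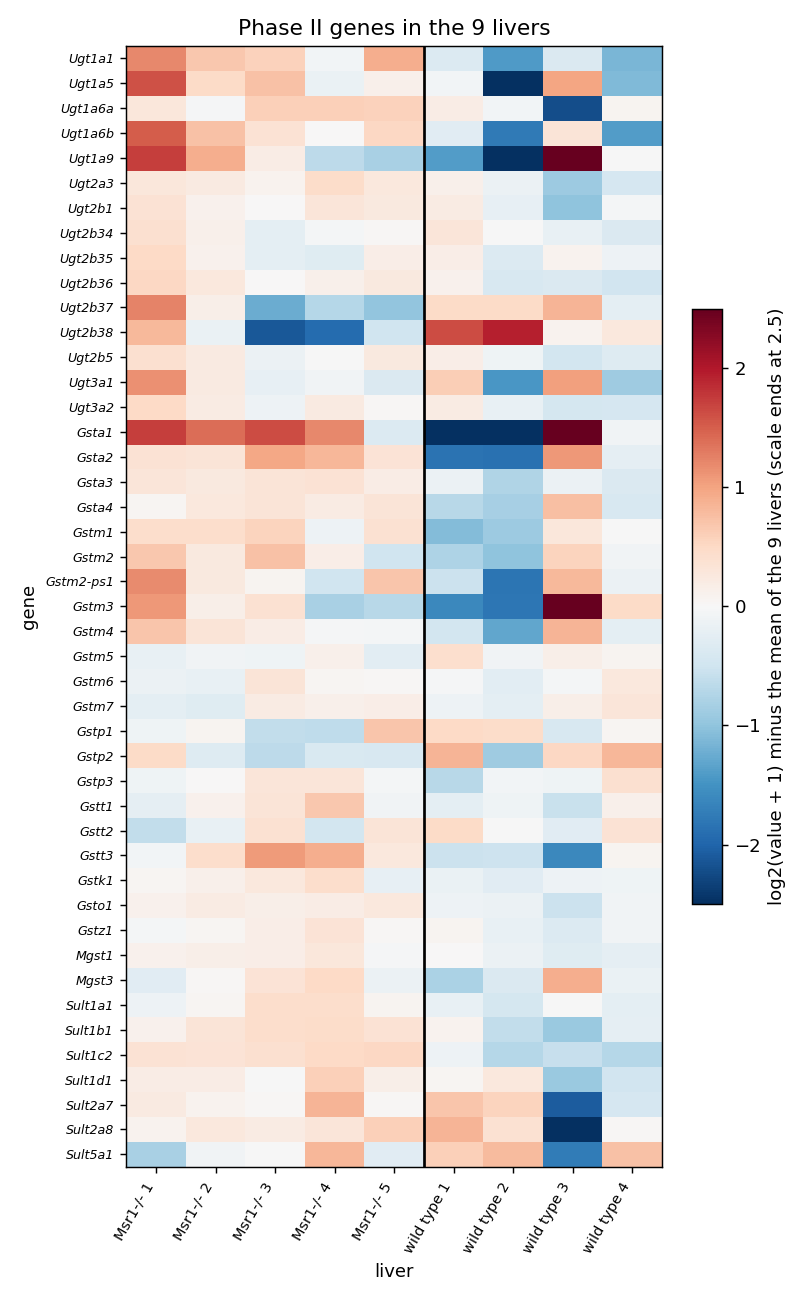
Log2 normalised count of each tested conjugation enzyme (rows, by family) in each liver (columns, Msr1-/- left of wild type), as the difference from the mean of the gene over the 9 livers. Wild type 3 departs from its group in both directions, high for Gsta1, Gstm3 and Ugt1a9 and low for Sult2a8, Sult5a1 and Ugt1a6a.

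The enzymes depend on donors that other genes supply. Among 5 genes listed for UDP-glucuronic acid supply, all had a positive log2 fold change (100%, against 52.7% of all genes). limma called 1 higher (20%, against 0.665% of all genes). Ugp2, which makes the UDP-glucose that is oxidised to UDP-glucuronic acid, had 12371, 10904, 10081, 11096 and 9769 normalised counts in Msr1-/- livers, against 7489.6, 6531, 6775 and 6783 in wild-type livers. The groups did not overlap. Ugp2 rose 1.57-fold (log2 fold change 0.65, SE 0.12, limma adjusted p = 0.0269), and the call was kept on leaving out 3 of the 9 livers in turn. The nucleotide sugar transporter gene Slc35b4 had a log2 fold change of 0.47 with no overlap (limma adjusted p = 0.0964). The rest of this list, Ugdh, Slc35b1 and Slc35d1, had log2 fold changes of 0.26, 0.16 and 0.13 (limma adjusted p = 0.621, 0.615 and 0.559). Of 10 tested genes of glutathione supply and breakdown, limma, edgeR and DESeq2 called 0. At an unadjusted p under 0.05, limma had 2 higher (20%, against 7.3% of all genes). These were Gclm, the modifier subunit of the rate-limiting glutamate-cysteine ligase, at 0.36 (limma adjusted p = 0.186), and Ggt6 at 0.35 (limma adjusted p = 0.217). Gclc, the other subunit of this ligase, had 4874 to 8237 normalised counts in Msr1-/- livers. Wild type 3 had 7206 and the other wild-type livers 2869 to 4955. The log2 fold change of Gclc was 0.50 (limma adjusted p = 0.393), and 0.75 without wild type 3 (limma adjusted p = 0.0518). Without wild type 3 limma called 0 of the 10. Of 7 genes that make, move or recycle PAPS, the 3 tools called 0. At an unadjusted p under 0.05, limma had 1 higher (14.3%, against 7.3% of all genes), Bpnt1. Bpnt1 and Impad1, phosphatases that clear the nucleotide left after sulfate transfer, had log2 fold changes of 0.41 and 0.23 (limma adjusted p = 0.292 and 0.548).

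Of 10 tested genes for the efflux and hydrolysis of conjugates, limma called 1 higher (10%, against 0.665% of all genes) and 0 lower. At an unadjusted p under 0.05, limma had 5 higher (50%, against 7.3% of all genes) and 1 lower (10%, against 8%). edgeR called 0, and DESeq2 called 2 higher (20%, against 2.37% of all genes), Abcc3 and Arsa. Abcc3, the transporter that carries glucuronides out of hepatocytes into blood, had 4033, 3672, 4009, 3052 and 3128 normalised counts in Msr1-/- livers, against 1132, 1077, 2586 and 2039 in wild-type livers. Every Msr1-/- liver lay above every wild-type liver, of which wild type 3 was the highest. Abcc3 rose 2.23-fold (log2 fold change 1.16, SE 0.25, limma adjusted p = 0.0498), with an adjusted p of 0.0041 in the fit that left out wild type 3. That was the only leave-one-out fit of 9 in which limma kept the call. Arsa, the lysosomal arylsulfatase A, had a log2 fold change of 0.68 (limma adjusted p = 0.0848). Without wild type 3, limma called 3 of the 10 higher (30%, against 2.59% of all genes) and 0 lower (2.32% of all genes). These were Abcc3, Arsa (log2 fold change 0.77, limma adjusted p = 0.0281) and Arsb. Arsb, another arylsulfatase gene, had a log2 fold change of 0.74 with wild type 3 (limma adjusted p = 0.242) and 1.07 without it (limma adjusted p = 0.00967).

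Of 16 tested nuclear receptors and transcription factors that control conjugation genes, limma and edgeR called 0. At an unadjusted p under 0.05, each had 3 higher (18.8%, against 7.3% of all genes in limma and 6.24% in edgeR) and 0 lower. DESeq2 called 2 higher (12.5%, against 2.37% of all genes), Ppara and Nr1i2. Ppara, a sensor of fatty acids, had 644, 389, 546, 421 and 475 normalised counts in Msr1-/- livers, against 351, 293, 386 and 253 in wild-type livers, without overlap (log2 fold change 0.62, limma adjusted p = 0.112). Nr1i2, the xenobiotic sensor PXR, had 1153, 1590.2, 1407, 1408 and 1451 in Msr1-/- livers, against 973, 1077, 1058 and 1178 in wild-type livers (log2 fold change 0.38, limma adjusted p = 0.129). The highest wild-type liver, number 4, lay just above the lowest Msr1-/- liver, number 1. Nr1i3, the xenobiotic sensor CAR, was named after its values were seen, as the only other regulator without overlap. It had 1302, 1573, 1930.5, 1230.2 and 1634 in Msr1-/- livers, against 827, 888, 79.2 and 694 in wild-type livers, with wild type 3 far below the rest. Its log2 fold change was 1.75 (limma adjusted p = 0.189), and 0.92 at an adjusted p of 0.00851 without wild type 3. In that fit limma called 3 of the 16 higher (18.8%, against 2.59% of all genes) and 0 lower (2.32% of all genes). These were Nr1i3, Ppara (log2 fold change 0.71, limma adjusted p = 0.0375) and Nfe2l2. Nfe2l2, the gene of Nrf2, had 1774 to 2399 in Msr1-/- livers, against 2308 in wild type 3 and 1256 to 1677 in the other wild-type livers. Its log2 fold change was 0.36 with wild type 3 (limma adjusted p = 0.381) and 0.54 without it (limma adjusted p = 0.0385).

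The 18 tested reporter genes stand for different regulators. Of these genes, 11 had a positive and 7 a negative log2 fold change (61.1% positive, against 52.7% of all genes). limma, edgeR and DESeq2 each called 2 higher (11.1%, against 0.665%, 0.572% and 2.37% of all genes) and 0 lower. In limma, Srxn1 had a log2 fold change of -0.005, Txnrd1 of -0.069 and Hmox1 of -0.593. Without wild type 3 these were 0.471, 0.155 and -0.116. Nqo1 had 0.28 with wild type 3 (limma adjusted p = 0.802) and 0.72 without it (limma adjusted p = 0.0666). Wild type 3 was the highest of all 9 livers for each of these genes, and limma called none of them in either fit. The log2 fold change of Cyp2b10 was 1.71 in limma (adjusted p = 0.549) and -0.32 in edgeR. Cyp2b9, a cytochrome P450 gene, had 141, 202, 124, 209 and 33.1 normalised counts in Msr1-/- livers, against 1.07, 3.17, 5.49 and 4.74 in wild-type livers. It rose 28.5-fold (log2 fold change 4.83, limma adjusted p = 0.00383), and which regulator lies behind this was not tested. Cyp4a10, a fatty acid hydroxylase gene induced through Ppara, had 5392, 4402, 4367, 5033 and 2386 in Msr1-/- livers, against 880.1, 474, 1253 and 1759 in wild-type livers, and rose 4.24-fold (limma adjusted p = 0.0226). Both were without overlap. Cyp3a11, a reporter of the sensors PXR and CAR that was also named after its values were seen, had 58826, 53947, 36013, 37417 and 33412 in Msr1-/- livers, against 5564, 2419, 66891 and 13614 in wild-type livers. Wild type 3 was the highest of all 9 livers and the other 3 wild-type livers were the lowest, as for Gsta2 and Gsta4. Cyp3a11 had a log2 fold change of 2.02 with wild type 3 (limma adjusted p = 0.215) and 2.91 without it (limma adjusted p = 0.00428). Without wild type 3, limma called 5 of 17 tested reporters higher (29.4%, against 2.59% of all genes) and 1 lower (2.32% of all genes). The 5 were Cyp2b9, Cyp2c55, Cyp3a11, Cyp4a10 and Cyp4a14. The lower one, Cyp7b1, an oxysterol hydroxylase gene also named after its values were seen, had 4657, 4971, 2982, 3696 and 6022 normalised counts in Msr1-/- livers, against 14688, 8983, 1532 and 6201 in wild-type livers. Wild type 3 was the lowest of all 9 livers and the other wild-type livers were the 3 highest. Its log2 fold change was -0.46 with wild type 3 (limma adjusted p = 0.768) and -1.11 without it (limma adjusted p = 0.0383).

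**Figure D4:**
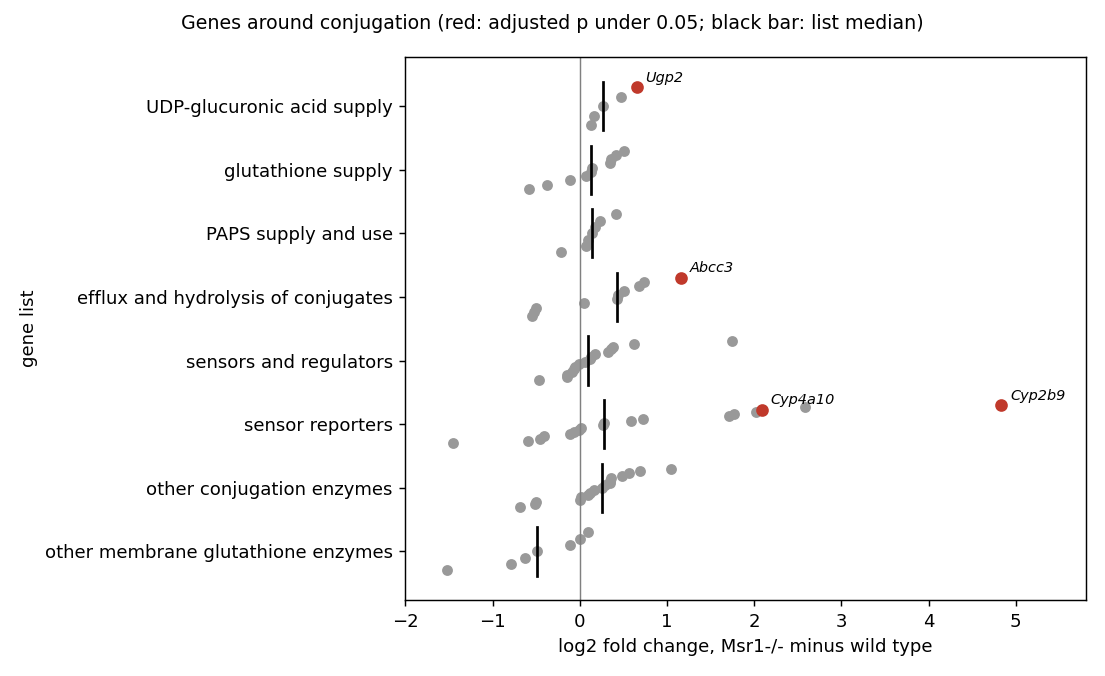
Log2 fold change (Msr1-/- minus wild type, x axis) of each tested gene in 8 lists around conjugation, with a black bar at the median of each list and red for an adjusted p under 0.05 in limma. The 4 red genes are Ugp2, Abcc3, Cyp4a10 and Cyp2b9, and 7 of the 8 medians are positive, from 0.09 for sensors and regulators to 0.43 for efflux and hydrolysis, while that of the other membrane glutathione enzymes is -0.49.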

How the data were processed

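Liver RNA of 9 mice was measured by RNA sequencing after a TruSeq RNA library preparation, per the labels' protocols. The submitters' processing notes name STAR, HTSeq, DESeq2 and mm10. Their settings, the strand used and the treatment of reads that fit several genes were not given in the sources used here. In the single table that the authors deposited, each signal is a gene's read count divided by the size factor of its liver. Within a tolerance of 0.01 reads, 100% of the values were whole multiples of 1 step per liver, which gave back whole reads, 15006773 to 18238932 per liver, a depth that covers counting error only. The lowest gene total was 10 reads, and 0 value columns lacked a labelled animal. No 2 livers of a genotype were duplicates (chi-square over degrees of freedom of 19.9 or more for each pair).

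Sample titles gave the genotypes and animal numbers. The log2 of each value plus 1 was tested with limma 3.58.1 in R 4.3.3 (intensity trend, genotype as the only term, Benjamini-Hochberg adjustment over 12937 genes, threshold 0.05), for genes whose mean over the livers was at least 10. For Msr1 the test was an exact permutation test, two-sided. The script was tested on simulated data. Alternatives were edgeR 4.0.16 and DESeq2 1.42.0 on the recovered reads, pseudocounts of 0.5 and 5, a minimum mean of 50 or none, quantile and TMM scaling, array weights, a block for the animal number, and fits that each left out 1 liver. Leaving out wild type 3 in edgeR and DESeq2 was chosen after seeing the data. DESeq2 called 8 members higher and edgeR 2.

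The members and lists were chosen with earlier results of these data known. Named are every called member, in each family the 3 highest by mean level and the 3 of smallest p, other members by range, from each list every called gene and the 2 of smallest p, and Msr1. 1 gene of the list of regulators is not reported here and was left out of its counts. Nr1i3, Arsb, Cyp2b10, Cyp3a11, Cyp7b1, Gclc, Hmox1, Hnmt, Nfe2l2, Nqo1, Srxn1, Txnrd1 and the rest of the UDP-glucuronic acid list were named after their values were seen. So were members given values to show the effect of wild type 3. Exon positions and lengths came from GENCODE M21 on GRCm38, to which mm10 corresponds, and all 52 members were matched by symbol. Shared sequence was counted as 50-base stretches of a gene's exons found in another gene. Promoters came from RefSeq (GRCm38.p6).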

Additional observations from a re-analysis of the deposited data

Results flagged for a closer look

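Within a genotype, single livers stood far from the others in 12 of 128 groups examined, where the gap to the nearest liver took up most of the range of the group. Chance would flag about 1 in 20 groups if values were normally distributed and groups independent. Here the groups are genes measured in the same livers, so the count cannot be set against that rate. In wild type 3, Gsta1 was at 1057 normalised counts, against 4.22 to 103 in the other wild-type livers. Gstm3 was at 5083 in wild type 3, against 203 to 993, and Ugt1a9 at 292, against 5.28 to 40.8. On the low side, wild type 3 had 923 of Gsto1, against 1209 to 1259.8, and 74.5 of Sult5a1, against 383 to 441. Clic1, a chloride channel protein gene with a glutathione transferase fold, was at 537 in wild type 3, against 295 to 317 in the other wild-type livers.

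Among the Msr1-/- livers, number 1 was high for Gstp2 at 45.6 (others 20.1 to 25.4), for Ugt3a1 at 439.8 (others 154 to 233) and for Bpnt1 at 1129.7 (others 759 to 832). Msr1-/- 4 was high for Sult1d1 at 3585 (others 2382 to 2695) and for Sult2a7 at 60.8 (others 33.8 to 39.2), and low for Arsa at 665 (others 981 to 1039.6).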

How the results depend on the processing

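Of the 45 tested members, 33 kept the sign of their log2 fold change in every setting run and 12 turned in at least 1. The count of members called higher, 2 in limma, was 8 in DESeq2, 7 with array weights (2.14% of all tested genes were called higher there), 6 in edgeR without wild type 3 and 14 in DESeq2 without wild type 3. It lay between 0 (without Msr1-/- 2) and 9 (without wild type 3, beside 2.59% of all genes) when each liver was left out in turn. Without wild type 1 it was 3. The share of all genes called without Msr1-/- 2 or wild type 1 is not given here, so those counts cannot be set against it. The family medians stayed on the same side of zero under each alternative. The Msr1 difference lay between -0.719 and -0.306 with each liver left out, and limma called it in 0 of these 9 fits (limma adjusted p of 0.194 to 0.448). With the animal number as a block, limma called 0 members, with 17 higher (37.8%, against 5.43% of all tested genes) and 2 lower (4.44%, against 6.44%) at an unadjusted p under 0.05. The deviations of same-numbered animals correlated at 0.0246, -0.077, -0.103 and 0.218, and 2 of 8 animals correlated best with their own number. Such correlations cannot show whether same-numbered animals shared a litter or a cage, so whether the numbers pair the animals is not known. The cause of these changes was not tested.

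Fold changes that turned were as follows, on the log2 scale. In edgeR and DESeq2, Gsta1 stood at -0.149 and -0.13, Gstm3 at -1.01 and -1.004, and Ugt1a9 at -0.532 and -0.505. In the same tools without wild type 3, Sult2a7 stood at -0.091 and -0.085 and Sult2a8 at -0.169 and -0.164, and Gstm7 at 0.003 in DESeq2. With quantile scaling, Gstm3 stood at -0.046, Gstm6 at -0.027 and Ugt2b34 at -0.02. With each liver left out in turn, Gstm3 ranged from -0.544 to 1.003, Gstm6 from -0.05 to 0.126, Gstm7 from -0.118 to 0.064, Mgst3 from -0.038 to 0.53, Sult2a7 from -0.037 to 0.891, Sult2a8 from -0.132 to 1.048, Sult5a1 from -0.781 to 0.069, Ugt1a9 from -0.192 to 1.657, Ugt2b35 from -0.01 to 0.188 and Ugt3a1 from -0.114 to 0.716. DESeq2 gave no adjusted p for Gsta1. The chosen minimum mean of 10 normalised counts kept 7 members out of the test.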

Other observations

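Enzymes of other conjugation reactions, which transfer methyl, acetyl or amino acid groups, held 14 of 17 tested genes with a positive log2 fold change and a median of 0.25, and limma and edgeR called 0 of them. Without wild type 3, 11 of 17 were positive with a median of 0.12. In that fit limma called 1 higher (5.88%, against 2.59% of all genes). It was Hnmt (log2 fold change 0.55, limma adjusted p = 0.0239), which was named after its values were seen. In limma with all 9 livers 3 were higher (17.6%, against 7.3% of all genes) and 1 was lower (5.88%, against 8%) at an unadjusted p under 0.05. DESeq2 called 1 higher (5.88%, against 2.37% of all genes), Inmt. Inmt, an N-methyltransferase gene, had 14578, 19545, 25810.0, 26264 and 28844 normalised counts in Msr1-/- livers, against 14076, 10812, 5568 and 16176 in wild-type livers. Wild type 4 lay above Msr1-/- 1, and the log2 fold change was 1.05 (limma adjusted p = 0.126; 0.73 without wild type 3). As3mt, the arsenic methyltransferase, had 364, 321, 366, 343 and 286 in Msr1-/- livers, against 510.1, 386, 726 and 351 in wild-type livers (log2 fold change -0.50, limma adjusted p = 0.246).

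Proteins with a glutathione transferase fold or membrane family outside the conjugation set had negative log2 fold changes in 5 of 7 tested genes, with a median of -0.49. limma called 0, with 3 lower at an unadjusted p under 0.05 (42.9%, against 8% of all genes). edgeR called 1 lower (14.3%, against 0.858% of all genes), Hpgds. DESeq2 called 2 lower (28.6%, against 3.6% of all genes), Hpgds and Clic1. Hpgds, the prostaglandin D synthase of immune cells, had 15.9, 23.5, 10.04, 14.0 and 14.0 normalised counts in Msr1-/- livers, against 42.8, 43.3, 83.2 and 26.6 in wild-type livers, and the groups did not overlap. Its log2 fold change was -1.53 (limma adjusted p = 0.054), and -1.24 without wild type 3 (limma adjusted p = 0.0375). Clic1 had 224, 217, 242, 232 and 228 in Msr1-/- livers, against 317, 295, 537 and 312 in wild-type livers, also without overlap (log2 fold change -0.63, limma adjusted p = 0.0957; 0.0399 without wild type 3). The summed level of 6 Kupffer cell genes was 2771 to 3878 in Msr1-/- livers and 4799 to 10575 in wild-type livers, and its part in these values was not tested.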
